A study of Homo sapiens with 8 samples.

Results

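The 10 genes described here are the 4 Notch receptors (NOTCH1, NOTCH2, NOTCH3 and NOTCH4), the endothelial ligands DLL4, JAG1 and JAG2, and the target genes HES1, HEY1 and HEY2. They were taken by gene symbol, and all 10 were found among the 23346 genes of the table. RNA was sequenced from hCMEC/D3, a line of human brain microvascular endothelial cells immortalised with telomerase and the SV40 large T antigen, used to model the barrier between blood and brain in culture. The labels give 8 replicates of this one line and name no treatment, so there was 1 group and no comparison between conditions. They do not say whether the replicates were separate cultures, so every p-value rests only on the spread between these libraries, which may be technical.

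Notch signalling passes between touching cells. A ligand of the Delta or Jagged family on one cell pulls on a Notch receptor on its neighbour, the receptor is cut by an ADAM protease and then by gamma-secretase, and the freed intracellular domain enters the nucleus. There it binds the DNA-binding protein RBPJ and a Mastermind coactivator and switches on genes of the HES and HEY families, which encode repressors with a basic helix-loop-helix domain. In blood vessels this pathway is known for restraining sprouting and for arterial identity, and NOTCH3 is known mainly from the mural cells that wrap vessels.

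The binding letters of RBPJ are shown for HES1 and HEY2 because the target genes were the members with the largest spread between libraries on the authors' length-adjusted scale. Promoter sequences came from RefSeq (GRCh38.p14) and matched 9 of the 10 members by symbol, all but HEY1. A window from 250 bases before the start to 20 bases after it was searched on both strands for the RBPJ core TGGGAA. In the sequences, capitals mark this core or its reverse complement. The HES1 window is chr3:194135898-194136167 (plus strand) and the HEY2 window is chr6:125749382-125749651 (plus strand).
HES1: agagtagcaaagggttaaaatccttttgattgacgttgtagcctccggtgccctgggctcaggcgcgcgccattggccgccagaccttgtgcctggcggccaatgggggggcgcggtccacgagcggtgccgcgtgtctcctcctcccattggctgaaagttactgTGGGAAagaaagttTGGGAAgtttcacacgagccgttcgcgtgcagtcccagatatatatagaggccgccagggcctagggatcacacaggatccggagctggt
HEY2: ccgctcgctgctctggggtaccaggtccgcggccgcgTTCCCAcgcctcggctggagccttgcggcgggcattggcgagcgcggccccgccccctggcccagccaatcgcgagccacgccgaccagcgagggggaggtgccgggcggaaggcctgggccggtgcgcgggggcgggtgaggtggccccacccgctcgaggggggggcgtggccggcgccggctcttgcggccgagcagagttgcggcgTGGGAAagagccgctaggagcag
HES1 held 2 matches, both on the gene's strand, at positions -84 to -79 and -70 to -65 from the start. HEY2 held 2 matches, at -213 to -208 on the opposite strand and at -3 to 3 on its own strand. Among 35116 promoters of the same length, 22.2% held the core and 3.28% held it more than once. The longer form GTGGGAA, which contains the core, occurred once in HES1 and 2 times in HEY2, and in 5.76% of all promoters. No window of the other 7 members held the core. HES and HEY proteins are known to bind the E-box CACGTG and the N-box CACNAG. The E-box was in none of the 9 windows (6.78% of all promoters hold it), and the N-box occurred 3 times in HES1, at least once in each receptor gene and in 34.5% of all promoters. A match describes the letters and is not a measured binding site.

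Total counts per library ranged from 69388544 to 90205244. All counts were even, and each was divided by 2 before counting error was computed; the halved values are named read pairs (34694272 to 45102622 per library). The endothelial label was met by all 12 endothelial markers, each detected, with a summed level of 3463 to 5517 CPM (a gene's count relative to its library's scaled total). Of the marker lists for other cells, 7 of 10 mural genes were detected, with a summed level of 53.1 to 79.4 CPM. The highest mural genes were CSPG4, RGS5 and PDGFRB, with means of 32.9, 14.4 and 9.57 CPM. KCNJ8, a pericyte channel gene, was not detected and had no counts in some libraries. Epithelial genes were detected in 3 of 5 cases, with a summed level of 317 to 510 CPM, most of it from the keratin gene KRT18 (358 CPM). The defining epithelial genes EPCAM and CDH1 had means of 0.943 and 0.309 CPM. Neuron genes were detected in 2 of 5 cases, TUBB3 (53.7 CPM) and SYT1 (4.17 CPM). The summed level of the neuron list was 51.7 to 66.5 CPM, most of it from TUBB3, and STMN2 had 0 counts. Of the astrocyte and microglia genes, 0 of 5 and 0 of 5 were detected, with AQP4 and P2RY12 at 0 counts. The part of other cell types in the results was not tested. In replicates 2, 7 and 8 long transcripts had lower levels relative to short ones than in the other libraries, with slopes of -0.22, -0.10 and -0.33 (log2 deviation per doubling of transcript length), against 0.08 to 0.14 elsewhere.

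A gene was called detected when it had at least 1 CPM in all 8 libraries, which 51.3% of all listed genes did. By this rule 7 of the 10 Notch genes were detected: NOTCH1, NOTCH2, NOTCH4, DLL4, JAG1, JAG2 and HES1. HEY1 reached 1 CPM in 3 libraries, HEY2 in 4 and NOTCH3 in 0. The plot of levels by library shows NOTCH3 below the detection line in every library, HEY1 and HEY2 on both sides of it, and the other 7 above it in every library.

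**Figure D1:**
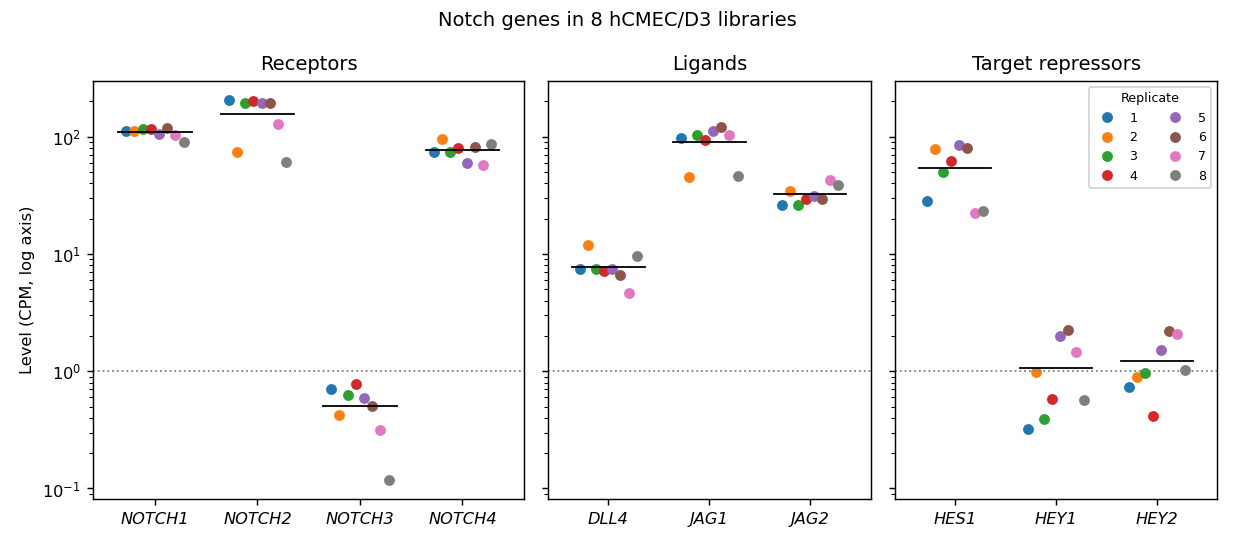
Levels of the 10 Notch genes in CPM on a log axis, in panels for receptors, ligands and target repressors. Each point is 1 library, coloured by replicate, the black line is the mean over 8 libraries and the dotted line is 1 CPM. NOTCH3, HEY1 and HEY2 have means of 0.508, 1.07 and 1.23 CPM, and the lowest mean among the others is 7.79 CPM for DLL4.

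NOTCH1, the receptor with the best known role in arterial endothelium (GRCh37 chromosome 9, 139388896 to 139440238, minus strand, 34 exons), was the steadiest member. Its level was 109 ± 9.61 CPM (SD, n = 8), with a lowest value of 90.5, a median of 112 and a highest of 119 CPM. The lowest value was in replicate 8 and the other 7 libraries lay between 103 and 119 CPM. On the authors' CQN values, a log2 scale that corrects for the length and GC content of each gene, the SD of NOTCH1 was 0.10. That was below the median SD of 0.16 over the 11980 detected genes. The microRNA gene MIR4673 lies in an intron of NOTCH1.

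NOTCH2, a broadly expressed receptor (chromosome 1, 120454176 to 120612317, minus strand, 34 exons), took the most counts of the members and was far less even. It had 205, 74.6, 195, 203, 195, 192, 128 and 60.4 CPM in replicates 1 to 8. Replicates 2 and 8 were low, replicate 7 lay between, and the other 5 libraries were within 192 to 205 CPM. The NOTCH2 transcript has 11425 nt, and these 3 libraries are the ones with negative length slopes. The NOTCH1 transcript has 9568 nt, and NOTCH1 had 112, 103 and 90.5 CPM in replicates 2, 7 and 8, the last its lowest. On the CQN values NOTCH2 was lower in replicates 2 and 8, by -0.51 and -0.59 from its mean, and was 0.14 above its mean in replicate 7. The cause of the low NOTCH2 values was not tested. The first exons of NOTCH2 are nearly identical to those of the paralog NOTCH2NL, which had 14.9 ± 6.38 CPM (SD, n = 8), so some reads may have been split between these genes.

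NOTCH4, a receptor largely restricted to endothelium (chromosome 6, 32162620 to 32191844, minus strand, 30 exons), had 76.3 ± 13.2 CPM (SD, n = 8). Its lowest value was 57.0 in replicate 7, its median 77.6 and its highest 96.4 in replicate 2. Its exons overlap those of GPSM3 on the same strand, which makes part of its count uncertain. NOTCH3 (chromosome 19, 15270444 to 15311792, minus strand, 33 exons) had 0.508 ± 0.216 CPM (SD, n = 8), from 0.118 CPM in replicate 8 (95% exact Poisson interval 0.0384 to 0.276, on 5 read pairs) to 0.771 CPM in replicate 4 (0.512 to 1.11). These 2 intervals did not overlap, and they cover counting error only. They belong to the lowest and highest of 8 libraries, a choice that favours a gap, so no conclusion is drawn from it. In bulk RNA a few cells with much NOTCH3 and many cells with little cannot be told apart.

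JAG1, a Jagged ligand (chromosome 20, 10618332 to 10654694, minus strand, 26 exons), was the most abundant of the 3 member ligands, also per transcript length. It had 97.6, 45.1, 102, 93.8, 112, 121, 104 and 45.9 CPM in replicates 1 to 8. Replicates 2 and 8 were at about the same low level and stood below all the others, which lay between 93.8 and 121 CPM. On the CQN values these 2 libraries were at -0.74 and -0.59 from the gene mean. In replicate 7, where NOTCH2 was at 128 CPM, JAG1 was among its higher values. JAG2, the other Jagged ligand (chromosome 14, 105608076 to 105635161, minus strand, 26 exons), had 32.4 ± 6.11 CPM (SD, n = 8). It was lowest in replicate 3 (26.0), with a median of 30.3, and highest in replicate 7 (43.1 CPM). Annotated long noncoding RNAs overlap exons of both genes, on the opposite strand for JAG1 and on the same strand for JAG2.

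DLL4, the Delta ligand of arterial cells and of the tip cells that lead sprouts (chromosome 15, 41221531 to 41231258, plus strand, 11 exons), was the least abundant of the 3 ligands. It had 7.48, 11.9, 7.39, 7.21, 7.41, 6.58, 4.68 and 9.70 CPM in replicates 1 to 8. Its highest values were in replicates 2 and 8, where JAG1 was lowest, and its lowest was in replicate 7. On the CQN values replicate 7 remained low (-0.66 from the gene mean) and replicate 2 high (0.37), while replicate 8 was near the mean (0.06).

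HES1, a repressor gene that is induced directly by Notch and also by growth factor signals (chromosome 3, 193853931 to 193856401, plus strand, 4 exons), had 28.6, 78.5, 50.1, 62.6, 85.7, 80.4, 22.5 and 23.2 CPM in replicates 1 to 8. Replicates 1, 7 and 8 were low, at 22.5 to 28.6 CPM, and the other 5 were between 50.1 and 85.7 CPM. This split differed from that of NOTCH2 and JAG1, since replicate 2 was high and replicate 1 low. On the CQN values the range of HES1 was 2.40, from 5.24 in replicate 8 to 7.64 in replicate 6. Its SD on that scale was 0.94, and 99.6% of detected genes had a lower one.

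HEY1 and HEY2, whose proteins are repressors known from arterial endothelium, were low. HEY1 (chromosome 8, 80676245 to 80680098, minus strand, 5 exons) had 0.323, 0.975, 0.393, 0.578, 2.00, 2.24, 1.46 and 0.568 CPM in replicates 1 to 8. The 95% exact Poisson interval was 0.161 to 0.578 CPM in replicate 1 (11 read pairs) and 1.78 to 2.79 CPM in replicate 6 (80 read pairs). These 2 intervals did not overlap, but they belong to the lowest and highest of 8 libraries, a choice that favours a gap. The share of all genes with such a gap is not given, so no conclusion is drawn from it. The highest values were in replicates 5, 6 and 7, and the interval of replicate 7 (1.12 to 1.88) overlapped that of replicate 2 (0.708 to 1.31). HEY2 (chromosome 6, 126070732 to 126082415, plus strand, 5 exons) had 0.734, 0.886, 0.970, 0.413, 1.53, 2.21, 2.09 and 1.02 CPM. The same 3 libraries were the highest for HEY2, and its lowest was replicate 4 (0.413 CPM, interval 0.231 to 0.681) rather than replicate 1.

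The targets therefore did not share one pattern. Replicates 5 and 6 were above the gene mean for HES1, HEY1 and HEY2 alike on the CQN values (in replicate 6 by 0.97, 1.33 and 0.93). Replicate 7 was above the mean for HEY1 and HEY2 (0.90 and 1.03) and below it for HES1 (-1.20). Replicate 4 was below for HEY1 and HEY2 (-0.70 and -1.61) and above for HES1 (0.60). The map of deviations shows these opposite signs, and shows that the targets spanned wider ranges than NOTCH1, NOTCH4 or JAG2.

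**Figure D2:**
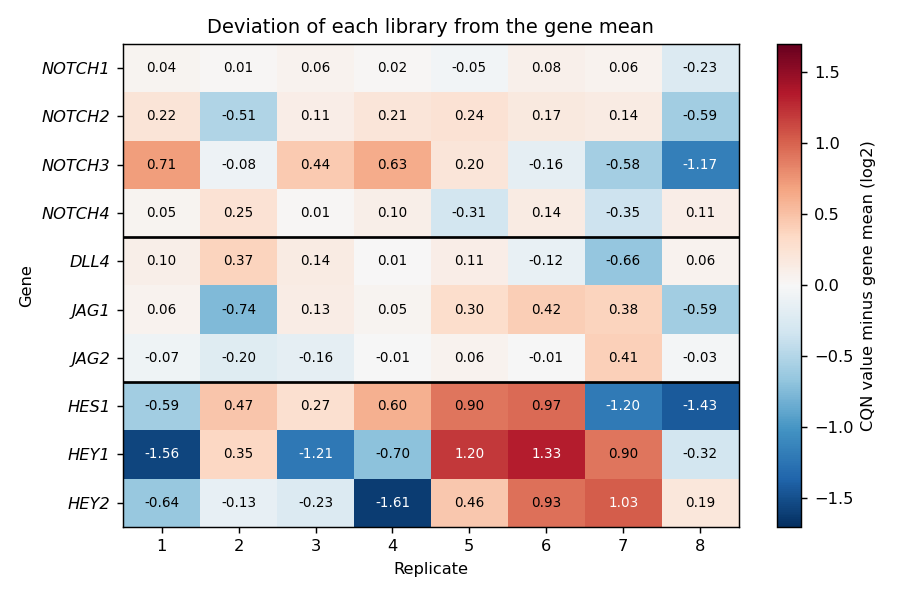
Deviation of each library (columns, replicates 1 to 8) from the mean of each gene (rows) in CQN values on the log2 scale, with red above and blue below the mean. Lines separate receptors, ligands and targets. HES1, HEY1 and HEY2 reach deviations from -1.61 to 1.33, whereas NOTCH1 stays between -0.23 and 0.08.

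Variation between replicates was tested on the counts with edgeR's goodness-of-fit test, which asks whether a gene varied more than detected genes of the same level did. Over all 11980 detected genes, 4.66% (558) had a Benjamini-Hochberg adjusted p under 0.05. Of the 7 detected Notch genes, HES1 and NOTCH2 passed. The biological coefficient of variation stands for the spread between replicates beyond counting error. The values given are edgeR's gene-wise estimates, which are drawn toward the trend and are not a gene's raw spread. The estimate was 46.9% for HES1 against a trend of 23.4% (edgeR adjusted p = 0.000295). For NOTCH2 it was 39.9% against a trend of 23.4% (edgeR adjusted p = 0.0149).

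The NOTCH2 call rested on the low libraries, with an edgeR adjusted p of 0.0689 without replicate 2, 0.0826 without replicate 8 and 0.888 without both. After removal of the length and GC trend from every library, the adjusted p of NOTCH2 was 0.0132. HES1 kept an adjusted p of at most 0.0139 when any 1 library was left out, the highest without replicate 7. JAG1 did not pass (33.2% against 23.5%, edgeR adjusted p = 0.191, unadjusted p = 0.0171), but did with the length and GC trend removed (adjusted p = 0.00126). NOTCH1, NOTCH4, JAG2 and DLL4 had adjusted p-values of 1 after rounding, with estimated coefficients from 14.7% for NOTCH1 to 26.4% for DLL4. The plain SD of NOTCH1 in CPM was 8.78% of its mean, below its estimate. With DESeq2's fitted trend in place of edgeR's, 23.7% of detected genes were called, and 3 Notch genes were, as JAG1 joined HES1 and NOTCH2 (adjusted p = 0.000367). No Notch gene had 1 library standing apart from the rest in CPM by Dixon's ratio, against 2.86% of detected genes.

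HEY1, HEY2 and NOTCH3 did not enter that test because they were not detected. In the same edgeR test on all 20571 genes with any count, 3.26% were called. HEY1 was among them (59.2% against a trend of 31.3%, edgeR adjusted p = 0.00262). HEY2 was not (46.2% against 30.8%, edgeR adjusted p = 0.140, unadjusted p = 0.00744), nor was NOTCH3 (44.3% against 34.4%, edgeR adjusted p = 0.488). In total 3 of the 10 Notch genes were called there, since HES1 and NOTCH2 passed again.

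**Figure D3:**
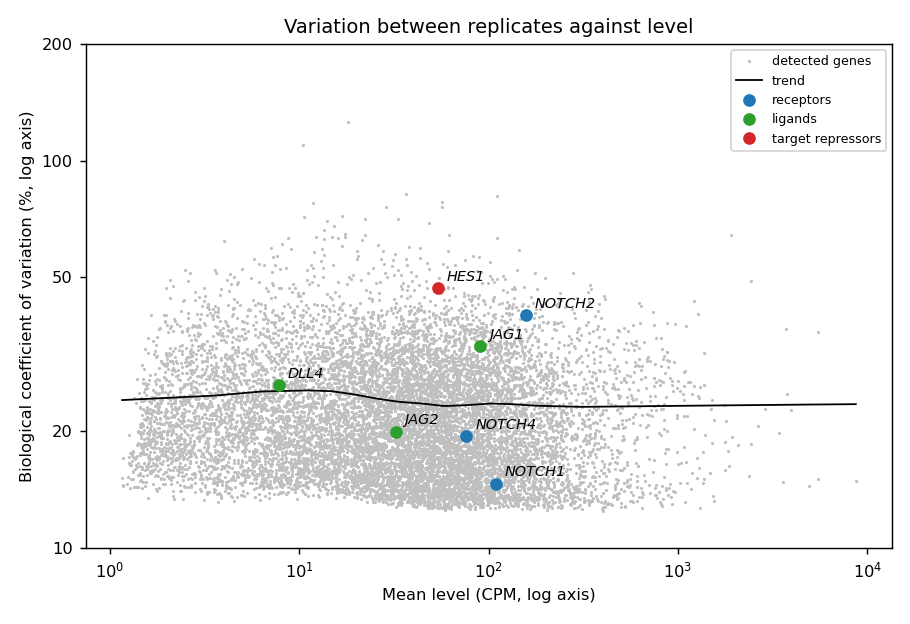
Biological coefficient of variation in percent (edgeR's gene-wise estimate, drawn toward the trend) against mean level in CPM, both on log axes, for the 11980 detected genes (grey) with the fitted trend (line) and the 7 detected Notch genes (coloured by role). HES1 at 46.9% and NOTCH2 at 39.9% lie above the trend, and NOTCH1 at 14.7% lies below it.

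Levels of different genes were compared per transcript length as RPKM (CPM per kilobase of the canonical transcript). HES1 was the highest at 34.2 ± 16.9 RPKM (SD, n = 8), followed by JAG1 (15.2 ± 4.85), NOTCH2 (13.7 ± 5.29), NOTCH1 (11.4 ± 1.00), NOTCH4 (11.3 ± 1.96), JAG2 (5.61 ± 1.06), DLL4 (2.27 ± 0.625), HEY1 (0.486 ± 0.340), HEY2 (0.469 ± 0.247) and NOTCH3 (0.0585 ± 0.0249). The median of detected genes was 11.4 RPKM, so NOTCH1 and NOTCH4 stood at the middle of the detected transcriptome. Neighbours in this order whose mean log2 difference was within its own SD over libraries were JAG1 and NOTCH2, NOTCH2 and NOTCH1, NOTCH1 and NOTCH4, and HEY1 and HEY2. HES1 ranked first in every library except replicate 7, where JAG1 did, and NOTCH3 ranked last in all 8.

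Within each role, the log2 ratio of RPKM + 0.1 was taken in each library. Its mean was tested by flipping signs over all 256 patterns (exact permutation, two-sided), with adjustment over 12 pairs. With 8 libraries the smallest possible p is 0.00781, which gave an adjusted p of 0.0117 here. It was reached by 8 pairs. NOTCH3 was the lowest receptor in 8 of 8 libraries, with log2 ratios of 6.20 ± 0.16 for NOTCH1 to NOTCH3, 6.34 ± 0.51 for NOTCH2 to NOTCH3 and -6.17 ± 0.37 for NOTCH3 to NOTCH4 (SD, n = 8). NOTCH3 lies below the pseudocount, so their size depends on it. With a pseudocount of 1 RPKM they were 3.55, 3.69 and -3.52, and on the CQN values 7.81 ± 0.58, 7.99 ± 0.49 and -7.37 ± 0.66. The 3 other receptor pairs did not pass. NOTCH1 to NOTCH2 was -0.14 ± 0.63 (adjusted exact permutation p = 0.713, n = 8), and NOTCH1 was the lower of them in 6 of 8 libraries, all but replicates 2 and 8.

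NOTCH1 to NOTCH4 was 0.03 ± 0.27 (adjusted exact permutation p = 0.781, n = 8) and NOTCH2 to NOTCH4 was 0.17 ± 0.85 (adjusted exact permutation p = 0.713, n = 8). On the CQN values, both NOTCH1 and NOTCH2 were above NOTCH4, by 0.43 ± 0.25 in 8 of 8 libraries and by 0.62 ± 0.49 in 6 of 8 (adjusted exact permutation p = 0.0104 and 0.0375, n = 8). Which of these ratios passed thus changed with the scale, and CQN adjusts for GC content as well as length. With only the length changed, to union exons, neither passed (adjusted exact permutation p = 0.141 and 0.682, n = 8). As a share of the summed receptor RPKM, NOTCH2 made up 36.4% ± 10.8, NOTCH4 31.7% ± 8.45, NOTCH1 31.7% ± 3.05 and NOTCH3 0.154% ± 0.0526 (SD, n = 8). The share of NOTCH2 was lowest in replicate 8, at 19.2%, where that of NOTCH4 was at its highest, 46.4%.

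Among the ligands all 3 ratios passed in 8 of 8 libraries. JAG1 exceeded JAG2 by 1.36 ± 0.72 and the ratio of DLL4 was -1.29 ± 0.47 to JAG2 and -2.65 ± 0.89 to JAG1 (log2, SD, adjusted exact permutation p = 0.0117, n = 8). The lead of JAG1 over JAG2 was small in replicates 8 and 2, at 0.19 and 0.33, and between 1.22 and 1.98 elsewhere. With the union of all annotated exons as length it was 0.86 ± 0.71 and held in 6 of 8 libraries. DLL4 took 10.6% ± 5.08 of the summed ligand RPKM (SD, n = 8), from 5.18% in replicate 7 to 20.3% in replicate 2.

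Among the targets, HES1 exceeded HEY1 by 5.90 ± 0.87 and HEY2 by 5.85 ± 1.04 in 8 of 8 libraries (log2, SD, adjusted exact permutation p = 0.0117, n = 8). Both ratios were smallest in replicate 7, at 4.23 and 4.00. HEY1 and HEY2 did not differ detectably, with -0.05 ± 0.52 and HEY1 higher in 4 of 8 libraries (adjusted exact permutation p = 0.781, n = 8). That near-equality depended on the length used. HEY1 has long alternative exons, and with union exon lengths (5487 against 2689 nt) it was the lower in 8 of 8 libraries, with a log2 ratio of -0.93 ± 0.41 (adjusted exact permutation p = 0.0117, n = 8).

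**Figure D4:**
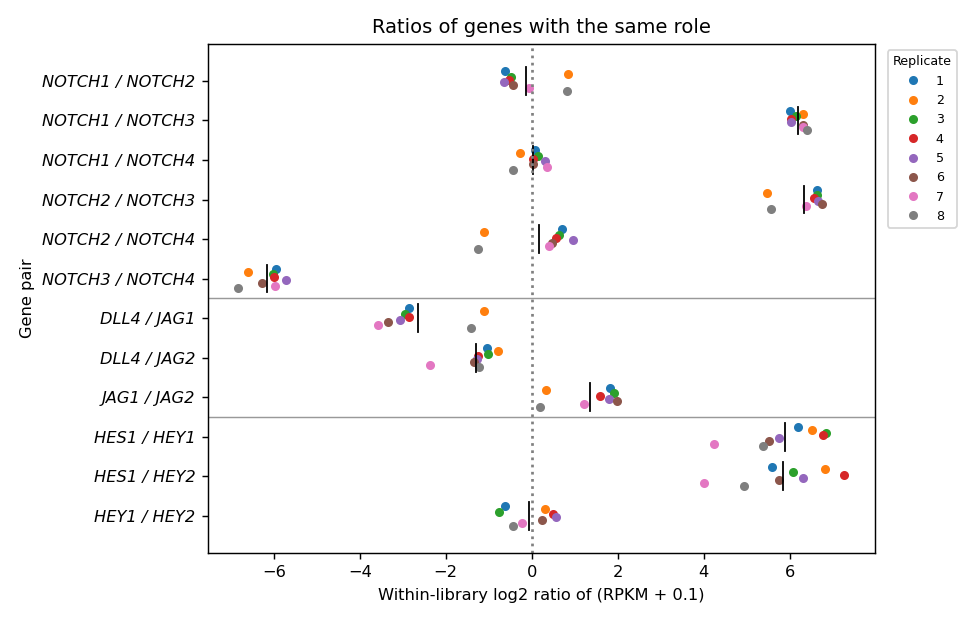
Within-library log2 ratio of RPKM + 0.1 for the 12 pairs of genes with the same role. Each point is 1 library, coloured by replicate, and the black line is the mean. NOTCH1 lies 6.02 to 6.39 above NOTCH3, HES1 lies 4.00 to 7.27 above HEY1 and HEY2, and replicates 2 and 8 stand apart in the ratios that hold NOTCH2 or JAG1, while replicate 7 stands apart for DLL4 to JAG2.

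The other genes of the pathway were taken in lists by step. Of 63 such genes 55 were detected, against 51.3% of all listed genes, and 6 of the 55 passed the variation test, against 4.66% of all detected genes. The calls of EGFL7, ADAM10 and MIB1 ended when the length and GC trend was removed (edgeR adjusted p = 1, 0.937 and 0.316), whereas those of MAML2, BHLHE40 and ID1 did not (0.000529, 3.04e-12 and 2.75e-09). Without replicates 2 and 8, EGFL7, ADAM10, MIB1 and MAML2 did not pass (0.665, 0.399, 0.0982 and 0.107), while BHLHE40 and ID1 did (0.00157 and 1.20e-06). Of 6 further ligand genes, canonical and noncanonical, 2 were detected. EGFL7, a secreted endothelial protein that can bind Notch receptors, had 206 ± 102 RPKM (SD, n = 8). It varied above the trend (edgeR adjusted p = 0.0137), with 699 and 581 CPM in replicates 8 and 2 and 213 to 368 CPM elsewhere. Without replicate 1 its adjusted p was 0.0530. DLL1, a Delta ligand, had 1.52 ± 0.233 CPM. The undetected genes were DLK2 (1.63 CPM, but below 1 CPM in replicate 1), DLL3 (0.895 CPM), CNTN1 (0.331 CPM) and DLK1 (0.00591 CPM).

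All 6 glycosylation genes, which modify the receptors' EGF repeats, were detected and 0 varied above the trend. The highest were the fringe MFNG (72.7 ± 21.4 RPKM, SD, n = 8), the fucosyltransferase POFUT1 (28.5 ± 1.77) and the glycosyltransferase EOGT (19.1 ± 2.61). The other fringes had 14.1 ± 5.59 RPKM (RFNG) and 2.43 ± 0.819 RPKM (LFNG). All 9 proteolysis genes were detected, led by the gamma-secretase subunits APH1A (116 ± 26.2 RPKM) and NCSTN (50.2 ± 7.18) and by FURIN (38.6 ± 6.51), which cuts the receptor on its way to the surface. ADAM10, the main protease of ligand-triggered cleavage, varied above the trend (edgeR adjusted p = 0.00881). It had 74.6, 108 and 50.3 CPM in replicates 2, 7 and 8 and 159 to 191 CPM in the others, the same 3 low libraries as for NOTCH2. Without replicate 8 its adjusted p was 0.0975.

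In the nuclear complex all 7 genes were detected, with SNW1 (64.9 ± 2.74 RPKM, SD, n = 8), EP300 (15.1 ± 5.41) and the coactivator MAML1 (14.2 ± 1.51) highest. RBPJ itself had 70.0 ± 13.8 CPM. MAML2, another Mastermind coactivator, varied above the trend (edgeR adjusted p = 0.00123), from 5.30 CPM in replicate 8 to 26.5 CPM in replicate 6. All 10 corepressor genes were detected and 0 varied above the trend, led by HDAC1 (92.7 ± 14.2 RPKM) and CTBP1 (37.9 ± 8.35). Of 13 genes of endocytosis and ubiquitin transfer, 11 were detected, led by the Notch inhibitor NUMB (36.3 ± 5.04 RPKM), ITCH (15.7 ± 4.93) and NUMBL (15.4 ± 1.85). MIB1, the ubiquitin ligase that lets ligands be internalised, varied above the trend (edgeR adjusted p = 0.00665) and was lowest in replicates 8, 2 and 7, at 40.2, 47.1 and 68.7 CPM. The undetected genes were NEURL1 (0.322 CPM) and DTX1 (0.0582 CPM).

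Of 12 genes of the HES and HEY family, feedback genes and related helix-loop-helix factors, 10 were detected and 2 varied above the trend. ID3 (272 ± 79.3 RPKM, SD, n = 8), ID1 (226 ± 93.1) and HES4 (35.1 ± 15.1) were highest. The ID genes encode inhibitors of helix-loop-helix factors and are best known as targets of BMP signalling. ID1 ranged from 87.3 CPM in replicate 1 to 381 CPM in replicate 2 (edgeR adjusted p = 0.0309). That call ended without replicate 1, 2, 5 or 6 (adjusted p = 0.649, 0.121, 0.0505 and 0.0667). BHLHE40 was lowest in replicate 8 (28.0 CPM) and highest in replicate 6 (133 CPM) (edgeR adjusted p = 0.0134), and its call ended without replicate 6 or 8 (0.141 and 0.0936). NRARP, a feedback inhibitor that Notch induces, did not pass (50.1 ± 13.8 CPM, edgeR adjusted p = 0.874), with its highest value in replicate 6 (74.5 CPM). HES5 (0.398 CPM) and HEYL (0.180 CPM) were not detected.

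Arterial and venous endothelial genes were set beside the members because Notch is known for arterial identity. Of 11 arterial genes 8 were detected, with ACVRL1 (55.6 ± 10.3 RPKM, SD, n = 8), NRP1 (34.6 ± 9.36) and SOX7 (14.8 ± 2.84) highest. GJA4 and GJA5, connexin genes of arterial endothelium, had 0.0423 and 0.00654 CPM, and CXCR4 had 0.624 CPM. Of 7 venous genes 4 were detected, led by EPHB4 (36.3 ± 8.04 RPKM), NR2F2 (26.4 ± 2.96), a repressor of Notch in veins, and NRP2 (1.09 ± 0.316). ACKR1 had 0.853 and SELP 0.0520 CPM, and APLNR had no counts in any library, which allows 0.0665 to 0.0880 CPM. Of all listed genes 51.3% were detected. Neither list had a gene above the variation trend, against 4.66% of all detected genes. With lists this short, having none is no result about them. The lists were not tested against each other.

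**Figure D5:**
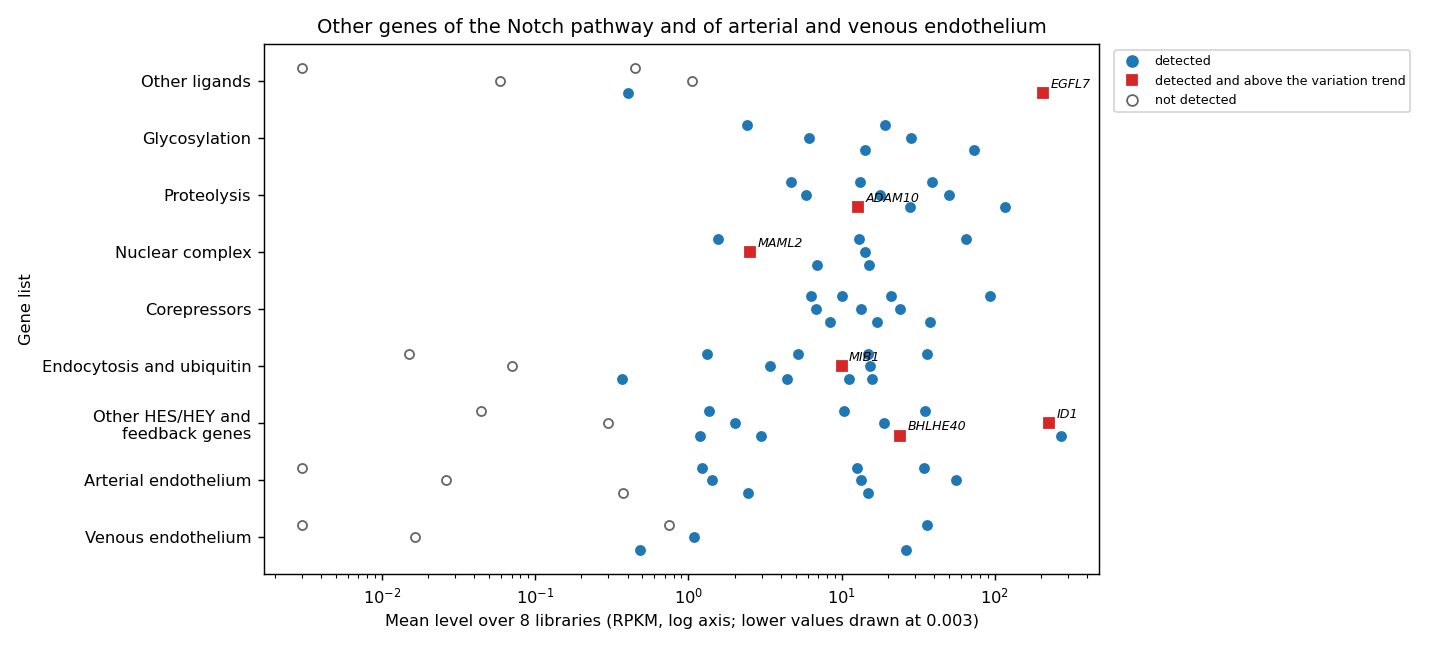
Mean level over 8 libraries in RPKM on a log axis for the genes of 9 lists. Filled circles are detected genes, red squares are detected genes above the variation trend and open circles are genes that were not detected. All genes of the glycosylation, proteolysis, nuclear complex and corepressor lists were detected, and the 6 squares are EGFL7, ADAM10, MAML2, MIB1, BHLHE40 and ID1.

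For each detected Notch gene, the 3 genes with the most similar CQN values over the 8 libraries were named by Pearson's r, as a description with no p-value, over 13961 other genes. All values come from the same 8 libraries. For HES1 the nearest were CYP2S1 (0.98), GADD45B (0.97) and DUSP5 (0.96), and 14 genes exceeded 0.9. For NOTCH2 they included TRRAP (0.995) and L1CAM (0.994), and 1011 genes exceeded 0.9. For JAG1 they were AHR (0.99), LPPR3 (0.98) and LIPG (0.98), with 360 genes over 0.9. For DLL4 they were GPR108 (0.99), OBFC2B (0.96) and KIFC1 (0.96), and for NOTCH4 SLFN11 (0.98), SDPR (0.97) and SMARCC2 (0.97). For NOTCH1 they were SNORD44 (0.98), ETFDH (0.97) and ALOX15 (0.96), and for JAG2 UNC13A (0.96), HTT (0.95) and RELB (0.95). SNORD44, ALOX15, LPPR3 and UNC13A were below the detection level.

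Most of these genes were tied to the scale. Of the 21 genes, 6 stayed among the 100 most similar on log2(CPM + 1) and 12 did without replicates 2 and 8, while 19 to 21 did when 1 library was left out. The members that were not detected lay outside the rule for naming, and HEY1 was looked at after its values were seen. Its most similar gene was HES5, another Notch target (0.92), which itself was near the counting limit, at 0.117 to 0.633 CPM. The next were PTBP2 (0.91) and NDUFV1 (0.89). For the other undetected members the nearest genes were RUNDC3A for HEY2 (0.94) and CENPK for NOTCH3 (0.98). Apart from HES5, none of these genes is in the pathway lists, so HES5 alone does not show a shared pattern of Notch genes. HES5 was highest in replicates 7, 5 and 6 (0.633, 0.596 and 0.588 CPM), the 3 libraries in which HEY1 and HEY2 were highest. Replicate 2 was next at 0.488 CPM, and no counting interval is given for HES5. Other targets differed in part. HES1 was lowest in replicate 7 (22.5 CPM). HES4 was highest in replicate 8 (52.7 CPM), although its SD on the CQN values was only 0.12. NRARP was highest in replicate 6 (74.5 CPM), as HEY1 and HEY2 were (2.24 and 2.21 CPM). HEY2 ranked 71 among 13961 genes in likeness to HEY1.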

How the data were processed

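Polyadenylated RNA of 8 replicates of the hCMEC/D3 line was sequenced. The labels' protocols name the TruSeq RNA kit, version v2. CASAVA 1.9, TopHat2 2.0.6 and HTSeq and the build hg19 are named in the submitters' processing notes, without settings. Use of strand and the annotation are not given in the sources used here. The authors deposited raw counts per gene and CQN-normalised values, read as log2 from their range, for 13962 of 23346 genes. All 186768 counts were even and 0 were odd. Columns were matched to samples by title, and 0 other sample columns were present.

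CPM were computed from TMM-scaled library sizes (edgeR 4.0.16, R 4.3.3), and RPKM from the canonical transcript in GENCODE 44 lifted to GRCh37, with a length for 97.1% of detected genes. Table starts were read as counting from 0 and are printed 1-based. Variation was tested with an intercept-only edgeR model, its trended dispersion and a goodness-of-fit test, adjusted over all detected genes. On simulated counts drawn at the fitted trend, with 200 genes raised 4-fold in 1 library, this called 175 of the 200 and 3 other genes. It called 0 of 11828 genes when none was changed. The simulated counts had no spread beyond the trend and no length slopes. They therefore do not give the share of false calls in the real libraries. The text names all 10 members, the 3 highest genes of each list by RPKM, its undetected genes where 5 or fewer, its genes above the trend and the 3 genes most similar to each detected member, except for some that are not reported here. Some further genes were named after their values were seen (DLL1, RFNG, LFNG, RBPJ, NRARP and the named marker genes of other cell types). The same holds for PTBP2, NDUFV1, RUNDC3A and CENPK. Members and lists were chosen with earlier results of these data known. Alternatives were DESeq2 1.42.0 scaling and trend, other detection levels, no filter, halved counts, removal of a trend on length and GC content fitted per library, CQN values, union exon lengths, other pseudocounts and left-out libraries.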

Additional observations from a re-analysis of the deposited data

Results flagged for a closer look

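The log2 ratio of DLL4 to JAG2 in replicate 7 was -2.37, apart from the other 7 libraries, which lay between -1.35 and -0.78. Its gap to the nearest library was 0.638 of the whole range, above Dixon's 95% critical value for 8 libraries. In that library DLL4 had its lowest level (4.68 CPM) and JAG2 its highest (43.1 CPM). It was the 1 library that stood apart among 22 values checked (10 levels and 12 ratios), and chance alone marks about 1 in 20. On CPM, 2.86% of all detected genes had a library that far from the rest.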

How the results depend on the processing

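The 110 alternative values of the members' levels all moved by less than 1 SD. For the means with libraries left out this holds by construction, since removing 1 or 2 of 8 values cannot move a mean that far. Those means therefore say nothing about stability, and only the changes of scaling could have moved the levels further. The count of Notch genes above the variation trend was 1 to 2 when 1 library was left out (1 without replicate 2 or 8) and 1 without replicates 2 and 8 together. Over the 67 detected genes of all lists, arterial and venous included, 6 were above the trend. This became 25 with DESeq2's trend, the first 6 among them, where 23.7% of all detected genes were called. It became 10 with the length and GC trend removed, 3 of the first 6 among them, where 6.52% of all detected genes were called against 4.66%. It was 4 to 6 with 1 library left out and 7 without replicates 2 and 8, with 2 of the first 6 among them. On CQN values the ratio of NOTCH1 to NOTCH4 was 0.43 and that of NOTCH2 to NOTCH4 0.62, both then past the threshold. With union exon lengths NOTCH1 to NOTCH2 was 0.023, of opposite sign, and HEY1 to HEY2 was -0.93. With a pseudocount of 1 RPKM, HEY1 to HEY2 was 0.0018. With 1 library left out it ranged from -0.14 to 0.047 and NOTCH1 to NOTCH4 from -0.015 to 0.097. Without replicates 2 and 8, NOTCH1 to NOTCH2 was -0.46, NOTCH1 to NOTCH4 0.16 and NOTCH2 to NOTCH4 0.62. Those 2 libraries are the only ones of opposite sign in these 3 ratios, so the remaining 6 give the smallest possible p (0.0313 before adjustment) by construction, and it says nothing about stability. Of the 21 genes most similar to a member, 6 stayed among the nearest 100 on log2(CPM + 1) and 12 without replicates 2 and 8. The cause of these shifts was not tested. No paired analysis was possible because all 8 libraries form 1 group. NOTCH3, HEY1 and HEY2 rest on 5 to 86 read pairs per library, which limits their precision.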
